A study of Mus musculus with 6 samples.

Results

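Primary hepatocytes isolated from the liver by collagenase can hold other liver cells. Libraries made from them can then carry transcripts of the cells that line and fill the sinusoids. Whether such cells were present here was not tested. The data described here are 43 marker genes of those cells among the 23282 genes of a count table: 17 macrophage markers (*Cd68*, *Clec4f*, *Vsig4*, *Cd5l*, *Adgre1*, *Csf1r*, *Marco*, *Timd4*, *C1qa*, *C1qb*, *C1qc*, *Lyz2*, *Ctss*, *Cd74*, *Laptm5*, *Tyrobp* and *Fcer1g*), 13 endothelial markers (*Stab1*, *Stab2*, *Lyve1*, *Pecam1*, *Kdr*, *Eng*, *Egfl7*, *Cdh5*, *Clec4g*, *Fcgr2b*, *Ptprb*, *Tek* and *Flt1*) and 13 stellate cell and fibroblast markers (*Dcn*, *Lrat*, *Reln*, *Colec11*, *Des*, *Pdgfrb*, *Ecm1*, *Sparc*, *Col1a1*, *Col1a2*, *Col3a1*, *Acta2* and *Tagln*). The members are fixed by gene symbol. The cells came from C57BL6/N mice and were cultured untreated (control, 3 libraries) or with recombinant IL-1β protein for 24 h (3 libraries), and no further genotype or agent is given in the labels. Both groups passed through the same collagenase perfusion, filtration, washing and attachment to plates. The series title calls the hepatocytes metabolically stressed, and its design text speaks of 2 samples a group but lists 3. Nothing in the labels says whether the 3 libraries of a group came from separate mice or separate wells, so the p-values measure only the spread between these libraries.

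Kupffer cells are the resident macrophages of the liver and sit inside the sinusoids, where they take up particles, dying cells and complement-coated debris. Liver sinusoidal endothelial cells form the fenestrated wall of the sinusoid and clear macromolecules from the blood through scavenger and lectin receptors, a set of functions they are known to lose readily in culture. Hepatic stellate cells lie between this wall and the hepatocytes, store vitamin A when quiescent, and turn into contractile, collagen-producing cells when activated. IL-1β is a cytokine made mainly by activated macrophages, and it acts through NF-κB on hepatocytes, endothelial cells and stellate cells alike. In bulk libraries such as these, fewer cells of a type and less RNA per cell cannot be told apart.

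QuantSeq reads the 3′ end of each polyadenylated transcript, here with single-end reads of 75 nt. Each library held 9538741 to 11105408 counts, and 16189 genes had a count in at least 1 library. Levels are given as counts or as CPM, which are counts scaled to a common library total with TMM factors, and 3 counts, taken as the lower limit of detection, were worth 0.269 to 0.321 CPM. This limit covers counting error only. Of 11657 genes with enough counts to test, 1563 passed an adjusted p of 0.05 in edgeR's quasi-likelihood test, a background of 13.4%. By direction, 6.97% of the genes tested rose and 6.44% fell after IL-1β. The median log2 fold change over all genes tested was -0.0018.

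The counts of the markers in each library were looked at first. They show whether a marker was detected, not which cells its reads came from. Broad macrophage markers were present in all 6 libraries, whereas the genes known from Kupffer cells were unequal: *Cd5l* had 150 to 224 counts in each library, and *Clec4f*, *Vsig4* and *Timd4* had few or none. *Clec4f*, a galactose-binding lectin receptor that defines mouse Kupffer cells, had 4, 27 and 7 counts in the control libraries and 6, 0 and 9 counts after IL-1β. *Vsig4*, a complement receptor of Kupffer cells, had 0, 2 and 7 counts in control and 2, 4 and 2 counts after IL-1β. *Timd4*, a phosphatidylserine receptor of embryonically derived resident macrophages, had at most 1 count in any library. Control library 2 therefore held most of the *Clec4f* reads of its group, and *Clec4f*, *Vsig4* and *Timd4* had too few counts to be tested. The stellate cell list was thinner still: *Lrat*, the retinol-esterifying enzyme of quiescent stellate cells, had 0, 1 and 2 counts in control and 0, 0 and 1 counts after IL-1β, *Colec11*, a collectin, reached at most 4 counts, and *Des*, the intermediate filament desmin, at most 7. The first list is therefore called by the broader name, macrophage, and the last one includes general fibroblast and matrix genes. Endothelial genes were present in all 6 libraries, apart from *Tek*, which was at 0 in control library 1 and in IL-1β library 1.

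Of the 43 markers, 30 had enough counts to be tested: 14 of 17 macrophage, 11 of 13 endothelial and 5 of 13 stellate genes. After IL-1β, 1 marker rose and 3 fell, all of them endothelial. *Clec4g*, *Kdr* and *Ptprb* fell and *Lyve1* rose, while none of the macrophage or stellate markers passed the test in either direction. The 4 calls among 30 markers are a share close to the 13.4% of all genes called. Among the 30, the 2 groups did not overlap in 15 genes, against 28.2% of all genes tested, and 12 had an unadjusted p below 0.05, against 23.6% of all genes tested. With 3 libraries a group, the smallest two-sided p of an exact permutation test is 0.1, so for single genes the separation of the groups is stated beside the edgeR result.

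**Figure D1:**
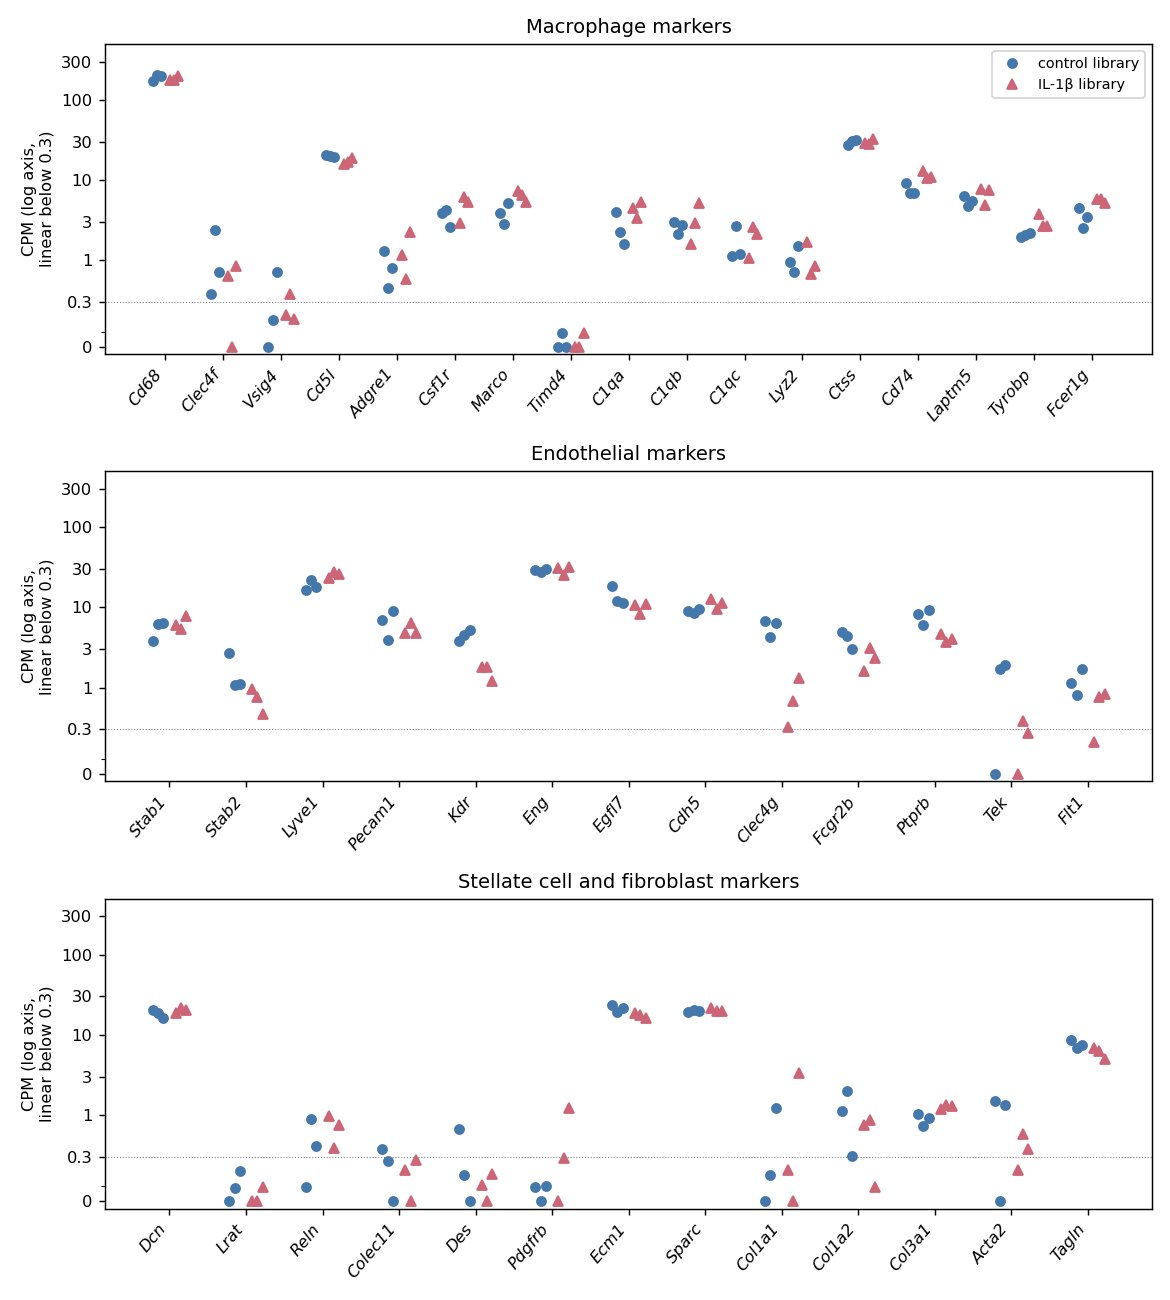
CPM of each of the 43 markers in every library, with 1 panel for each list; blue circles are control libraries and red triangles IL-1β libraries, and the axis is logarithmic above 0.3 CPM and linear below it. *Clec4g* and *Kdr* stand lower after IL-1β with no overlap between the groups, and *Timd4* and *Lrat* lie near 0 in all 6 libraries.

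The strongest change was in *Clec4g*, which encodes LSECtin, a C-type lectin of sinusoidal endothelium (chr8:3716071-3720651, minus strand, GRCm38). It had 72, 48 and 63 counts in the control libraries and 3, 7 and 14 counts after IL-1β. The lowest control library thus held more reads than the highest IL-1β library. The level fell from 5.80 ± 1.32 to 0.765 ± 0.497 CPM (SD, n = 3 each), with a log2 fold change of -2.87 ± 0.43 (SE; adjusted p = 1.9e-05). *Clec4g* entered the test through its control libraries, since only 1 IL-1β library passed the count minimum.

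*Kdr* encodes VEGF receptor 2, the main signalling receptor for VEGF-A on endothelial cells (chr5:75933270-75978428, minus strand). The control libraries had 41, 51 and 52 counts and the IL-1β libraries 17, 19 and 13. Every IL-1β library lay below every control library. The level fell from 4.55 ± 0.694 to 1.62 ± 0.354 CPM, a log2 fold change of -1.49 ± 0.36 (SE; adjusted p = 0.0051). The calls for *Clec4g* and *Kdr* held with every single library left out, with adjusted p up to 0.00047 and 0.0386 respectively.

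*Ptprb* encodes VE-PTP, a receptor phosphatase that acts on VE-cadherin and on the angiopoietin receptor TIE2 (chr10:116301374-116389538, plus strand). It had 88, 68 and 92 counts in control and 43, 38 and 43 after IL-1β. The groups did not overlap. The level fell from 7.87 ± 1.63 to 4.08 ± 0.479 CPM, a log2 fold change of -0.95 ± 0.26 (SE; adjusted p = 0.0135). The adjusted p was 0.0804 without control library 3, 0.0686 without IL-1β library 2 and 0.0537 without IL-1β library 3, so this call depended on each of them.

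*Lyve1*, a hyaluronan receptor shared by sinusoidal and lymphatic endothelium (chr7:110850607-110862953, minus strand), went the other way. It had 174, 245 and 180 counts in control and 220, 291 and 278 after IL-1β. In CPM the control libraries were at 16.3, 21.9 and 18.1 and the IL-1β libraries at 23.5, 27.95 and 25.8, so that all 3 treated libraries lay above all 3 controls although the raw counts overlapped. The log2 fold change was 0.45 ± 0.14 (SE; adjusted p = 0.0274). This call was the least stable of the 4. The adjusted p was 0.0507 with scaling by total counts only and 0.0574 in DESeq2. It was 0.0965 and 0.0807 without control libraries 1 and 3, and 0.137 and 0.0851 without IL-1β libraries 2 and 3.

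The promoters of 2 endothelial genes that fell are shown beside that of *Eng*, an endothelial gene whose level did not pass the test, to show what sequence is shared at their starts. Each run is the 250 bases before the transcription start in RefSeq on GRCm38.p6, written 5′ to 3′ on the gene's own strand, and capitals mark the ETS motif GGAAGT, which on the opposite strand reads ACTTCC.
Kdr, chr5:75978456-75978705, minus strand: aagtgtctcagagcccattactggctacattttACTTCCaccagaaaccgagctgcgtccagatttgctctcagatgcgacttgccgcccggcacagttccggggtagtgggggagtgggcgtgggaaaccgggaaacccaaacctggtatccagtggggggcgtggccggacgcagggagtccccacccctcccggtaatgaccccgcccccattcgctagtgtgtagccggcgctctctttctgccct
Clec4g, chr8:3720652-3720901, minus strand: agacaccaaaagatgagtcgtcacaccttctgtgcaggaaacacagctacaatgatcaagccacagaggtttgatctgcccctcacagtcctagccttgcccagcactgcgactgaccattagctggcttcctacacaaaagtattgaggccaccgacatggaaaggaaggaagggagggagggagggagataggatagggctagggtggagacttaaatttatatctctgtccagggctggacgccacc
Eng, chr2:32646345-32646594, plus strand: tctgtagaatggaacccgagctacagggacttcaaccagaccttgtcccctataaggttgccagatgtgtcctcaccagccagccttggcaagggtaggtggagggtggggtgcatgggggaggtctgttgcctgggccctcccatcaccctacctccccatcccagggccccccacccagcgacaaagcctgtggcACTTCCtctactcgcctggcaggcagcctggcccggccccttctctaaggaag

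ETS factors include ERG and FLI1 in endothelium and PU.1 in macrophages. The motif stood in the *Kdr* and *Eng* promoters and not in that of *Clec4g*. *Ptprb*, which also fell, and *Lyve1*, which rose, had no matched promoter and could not be looked at. Whether the motif bears on any of the changes was not tested. Over the window from 250 bases before to 50 after the start, on both strands, 23.8% of 32851 promoters held the motif. Only 30 of the 43 markers were matched to a promoter, fewer than 80% of each list, so a comparison of the lists with all promoters is void, and the shares are given as a description. The motif was found in 9 of 12 macrophage promoters, 6 of 11 endothelial promoters (from 9 genes) and 0 of 9 stellate promoters. The longer PU.1 motif, which is the ETS motif with GA before it, was in 3.20% of all promoters and in those of *C1qc*, *Ctss* and *Eng*. The NF-κB motif was in 1.63% of all promoters and in 1 of the 32 marker promoters, that of *Marco*. The GATA motif AGATAA was in 11.2% of all promoters and in those of *Tek* and *Colec11*, the E-box CAGGTG was in 20.2% and in 5 of the 32, and the CArG box of SRF was in 1.63% and in none of the 32. A match is a run of letters and was not tested for binding.

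The remaining endothelial markers did not pass the test. *Eng*, the TGF-β co-receptor endoglin and the endothelial marker with the highest mean CPM, had 314, 309 and 303 counts in control and 291, 264 and 346 after IL-1β. The IL-1β libraries spread to both sides of the controls. The log2 fold change was 0.02 ± 0.12 (SE; adjusted p = 0.963), with a 95% interval from -0.23 to 0.26. *Cdh5*, VE-cadherin of endothelial junctions, had 96, 94 and 94 counts in control and 120, 99 and 122 after IL-1β. In CPM every IL-1β library lay above every control, and the log2 fold change was 0.32 ± 0.19 (SE; adjusted p = 0.336). *Egfl7*, a matrix protein secreted by endothelium and the host of miR-126, had 199, 135 and 114 counts in control and 101, 86 and 117 after IL-1β. On the CPM scale the groups did not overlap, with control library 1 well above the other two, and the log2 fold change was -0.50 ± 0.20 (SE; adjusted p = 0.112), or -0.24 without that library. *Egfl7* shares 3.03% of the 75-base windows of its 3′ end with another annotated gene, so a small part of its reads could have been placed elsewhere.

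**Figure D2:**
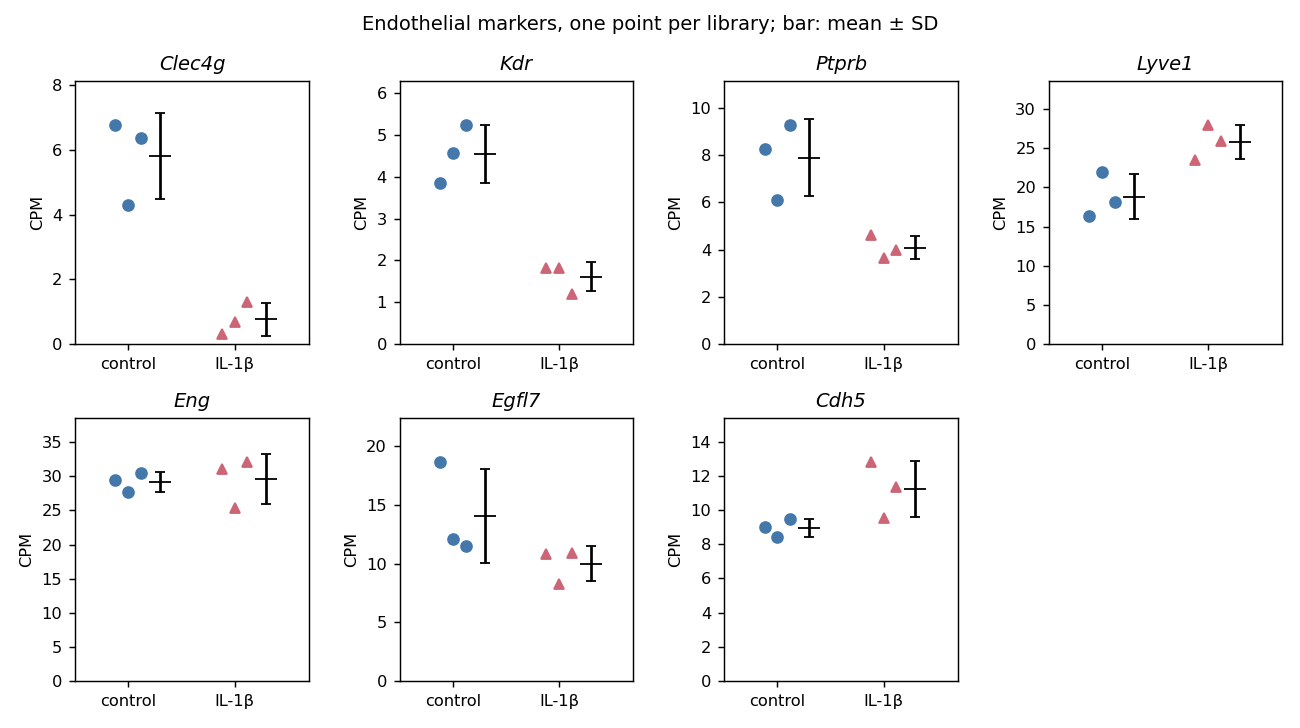
CPM in each library of the 4 endothelial markers that passed the test (*Clec4g*, *Kdr*, *Ptprb*, *Lyve1*) and of *Eng*, *Egfl7* and *Cdh5*; points are libraries, the bar beside each group is the mean ± SD (n = 3), and every axis starts at 0. *Clec4g* falls from 5.80 to 0.765 CPM on average while *Eng* has 29.2 CPM in control and 29.5 CPM after IL-1β.

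Among the others, *Stab1*, a scavenger receptor that clears modified proteins, was at 0.25 on the log2 fold change scale (adjusted p = 0.654), and its relative *Stab2*, which takes up hyaluronan, was at -1.16 (adjusted p = 0.209). *Stab2* had 29, 12 and 11 counts in control and 9, 8 and 5 after IL-1β, so the groups did not overlap. Without control library 1, which held the most reads, the log2 fold change was -0.58 (adjusted p = 0.691). *Stab2* too was tested through its control libraries alone. *Fcgr2b*, the inhibitory Fc receptor by which sinusoidal endothelium takes up immune complexes, was at -0.82 (adjusted p = 0.153), and *Pecam1*, an adhesion molecule of endothelial contacts, at -0.31 (adjusted p = 0.58). *Tek* and *Flt1* had too few counts for the test: *Tek*, the TIE2 receptor, had 0, 19 and 19 counts in control and 0, 4 and 3 after IL-1β, and *Flt1*, VEGF receptor 1, had 12, 9 and 17 against 2, 8 and 9. Over the 11 endothelial markers tested, 4 had a log2 fold change above 0, beside 49.6% of all genes tested, and 7 were below 0. The median was -0.50, or -0.31 with at least 10 counts in every library, where *Clec4g* and *Stab2* dropped out. Without a filter on low counts all 13 entered and the median was -0.82. Summed over all 13 genes, the level was 112, 103 and 114 CPM in control and 98.7, 93.9 and 103 CPM after IL-1β. The ratio of the means was 0.90, and the groups just overlapped.

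No macrophage marker passed the test in edgeR or in DESeq2, although 4 of the 14 tested had an unadjusted p below 0.05, beside 23.6% of all genes tested, and 11 had a log2 fold change above 0, beside 49.6%. *Cd68*, a lysosomal glycoprotein of phagocytes, had 1835, 2276 and 1995 counts in control and 1673, 1825 and 2132 after IL-1β. The 2 groups overlapped, at 192 ± 17.4 and 184 ± 12.3 CPM, and the log2 fold change was -0.06 ± 0.08 (SE; adjusted p = 0.70), with a 95% interval from -0.22 to 0.09. *Cd68* alone made up 68.9% of the summed macrophage CPM in control and 65.3% after IL-1β. In control the other macrophage markers stood far below it, with *Ctss* next at 30.2 CPM and *Csf1r* at 3.56 CPM. Which cells the *Cd68* reads came from was not tested. Its coding neighbour *Eif4a1*, a translation initiation factor that every cell uses, lies on the same strand and ends 766 bases upstream of it, and had 214 ± 8.07 CPM in control and 223 ± 7.48 CPM after IL-1β. Reads running from one gene into the other could not be separated from these counts, and their share was not tested.

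*Ctss*, a lysosomal protease that processes the invariant chain for antigen presentation, had 294, 348 and 315 counts in control and 270, 295 and 346 after IL-1β. Its groups overlapped, with a log2 fold change of -0.02 ± 0.12 (SE; adjusted p = 0.958). *Cd5l*, a scavenger protein secreted by tissue macrophages, Kupffer cells among them, had 218, 224 and 191 counts in control and 150, 175 and 201 after IL-1β. In CPM it did not overlap between the groups, being lower after IL-1β, and its log2 fold change was -0.21 ± 0.14 (SE; adjusted p = 0.392). *Cd74*, the invariant chain of MHC class II and the substrate of that protease, had 98, 78 and 69 counts in control and 120, 110 and 117 after IL-1β. All 3 IL-1β libraries exceeded all 3 controls. Its log2 fold change of 0.56 ± 0.20 (SE) gave an adjusted p of 0.0658. With a single library left out the adjusted p ranged from 0.0235, without control library 1, to 0.233.

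The other tested macrophage markers had lower counts. The complement C1q chains, which macrophages secrete, had log2 fold changes of 0.75 for *C1qa* (adjusted p = 0.211), 0.31 for *C1qb* (adjusted p = 0.71) and 0.21 for *C1qc* (adjusted p = 0.86), and their summed level was 6.90 ± 1.28 CPM in control and 9.55 ± 2.81 CPM after IL-1β. *C1qa* also passed the test without control library 1 (adjusted p = 0.0432). *Fcer1g* and *Tyrobp*, the signalling adaptors of activating immune receptors, had log2 fold changes of 0.69 (adjusted p = 0.144) and 0.54 (adjusted p = 0.419), and neither overlapped between the groups. *Marco*, a scavenger receptor for bacteria, was at 0.67 (adjusted p = 0.141), also without overlap. *Csf1r*, the receptor for the growth factor on which macrophages depend, was at 0.44 (adjusted p = 0.463), *Adgre1*, the F4/80 antigen, at 0.64 (adjusted p = 0.582), *Laptm5*, a lysosomal membrane protein of leukocytes, at 0.29 (adjusted p = 0.573), and *Lyz2*, lysozyme, at 0.02 (adjusted p = 0.992). *Lyz2* shares 7.04% of the 75-base windows of its 3′ end with its paralog *Lyz1*, which had at most 6 counts in any library.

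The median log2 fold change of the 14 macrophage markers was 0.38, beside -0.0018 over all genes. Summed over all 17 genes the level was 261, 289 and 287 CPM in control and 275, 268 and 303 CPM after IL-1β, a ratio of 1.01. Leaving out *Cd68*, the sum was 88.5, 85.5 and 86.3 CPM in control and 96.2, 92.3 and 105 CPM after IL-1β, a ratio of 1.13, and the groups no longer overlapped. This shorter sum was not among the planned ones and is a description only. The summed macrophage level is thus mainly a reading of *Cd68*, and the sum of the remaining genes was higher in each IL-1β library than in any control. No single gene among them passed the test.

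**Figure D3:**
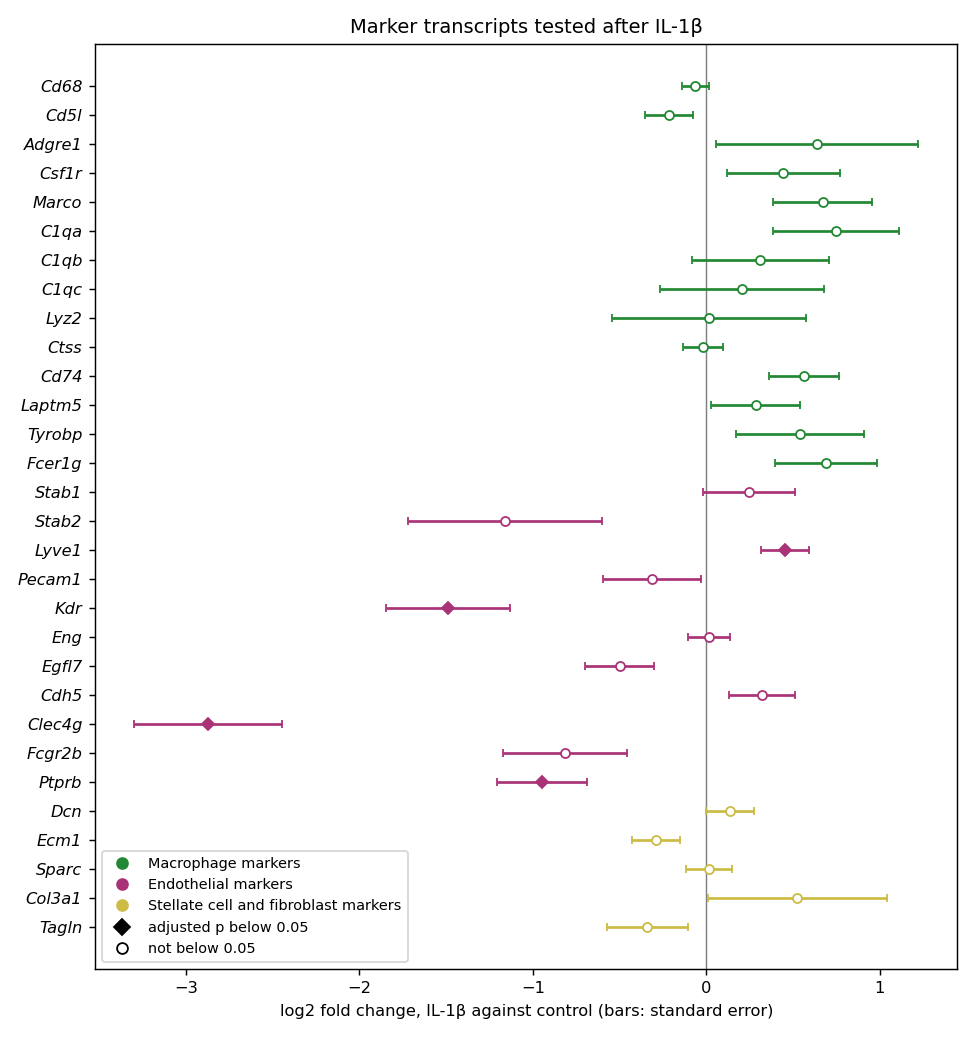
Log2 fold change of IL-1β against control for the 30 markers with enough counts to be tested, with bars for the standard error; green is macrophage, purple endothelial and yellow stellate, and filled diamonds passed an adjusted p of 0.05. The 4 filled diamonds are all endothelial, from -2.87 for *Clec4g* to 0.45 for *Lyve1*, and *Adgre1*, *Lyz2*, *Stab2* and *Col3a1* have the widest bars.

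The stellate and fibroblast markers did not pass the test, and 8 of the 13 had too few counts for it. *Sparc*, a matricellular glycoprotein that binds collagen, had 206, 230 and 198 counts in control and 200, 205 and 211 after IL-1β, with a log2 fold change of 0.02 ± 0.13 (SE; adjusted p = 0.962). The 6 libraries lay close together, at 19.96 ± 0.618 and 20.2 ± 0.998 CPM. *Dcn*, the proteoglycan decorin, had 218, 208 and 161 counts in control and 174, 226 and 221 after IL-1β, with overlapping groups and a log2 fold change of 0.14 ± 0.14 (SE; adjusted p = 0.631). *Ecm1*, a secreted matrix protein that hepatocytes and stellate cells both make, had 248, 213 and 214 counts in control and 173, 182 and 176 after IL-1β. Every IL-1β library lay below every control, and the log2 fold change of -0.29 ± 0.14 (SE) gave an adjusted p of 0.207. *Tagln*, the actin-binding protein SM22α of contractile cells, had 92, 77 and 74 counts in control and 64, 66 and 54 after IL-1β. It also did not overlap, with a log2 fold change of -0.34 ± 0.23 (SE; adjusted p = 0.423).

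*Col3a1*, the chain of type III collagen, had 11, 8 and 9 counts in control and 11, 14 and 14 after IL-1β (log2 fold change 0.52, adjusted p = 0.615). *Col3a1* entered the test through its IL-1β libraries, since only 1 control library passed the count minimum. The type I collagen chains differed between single libraries more than between groups: *Col1a1* had 0, 2 and 12 counts in control and 2, 0 and 36 after IL-1β, and *Col1a2* 12, 22 and 3 against 7, 9 and 1. *Acta2*, smooth muscle actin of activated stellate cells, had 16, 0 and 13 counts in control and 2, 6 and 4 after IL-1β. *Pdgfrb*, the PDGF receptor of mesenchymal cells, had 1, 0 and 1 counts against 0, 3 and 13, and *Reln*, the glycoprotein reelin, 1, 10 and 4 against 9, 4 and 8. In *Col1a1* and *Pdgfrb* most of the reads came from IL-1β library 3. Summed over the 13 genes the level was 76.7, 69.5 and 69.6 CPM in control and 69.0, 68.7 and 69.2 CPM after IL-1β, a ratio of 0.96, and the median log2 fold change of the 5 genes tested was 0.018. With these counts, the activation genes *Acta2*, *Col1a1* and *Pdgfrb* could not be tested for a change.

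Because no strand setting is given for the counting, genes on the opposite strand that overlap the last kilobase of a marker were looked for. Such an overlap was found for *Stab1* (with *Nt5dc2*), *Eng* (with *Fpgs*), *Des* and *Tagln* (with *Pcsk7*), and reads of the partners could not be told apart there. None of the 4 genes that passed the test had one.

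Further genes of the same cell types were taken as companion lists. Of 31 endothelial companions, 22 were tested, with a median log2 fold change of -0.63. Of these, 3 rose and 7 fell, beside 6.97% and 6.44% of all genes tested. *Vcam1*, an adhesion molecule for leukocytes, had 95, 84 and 96 counts in control and 206, 301 and 243 after IL-1β (log2 fold change 1.496 ± 0.16 SE, adjusted p = 1.8e-07). *Icam1*, a further adhesion molecule, which hepatocytes also express, had 465, 512 and 381 counts against 655, 707 and 759 (0.70 ± 0.09, adjusted p = 4.4e-06). In the other direction, the water channel *Aqp1* had 107, 93 and 103 counts against 41, 28 and 46 (-1.34 ± 0.25, adjusted p = 0.000405), and *Flt4*, VEGF receptor 3, had 89, 101 and 85 counts against 40, 34 and 38 (-1.23 ± 0.25, adjusted p = 0.000821). All 4 were free of overlap between the groups, but they were named for the smallest adjusted p, so this is no separate support. The selectins *Sele* and *Selp*, adhesion molecules of the same list, had at most 12 counts in any library and could not be tested. Of the VEGF receptors, *Flt4* and *Kdr* fell and *Flt1* had too few counts for the test. The others of the 7 that fell were *Dnase1l3*, *Bmp2*, *F8*, *Adgrl4* and *Esam*. *Nrp1*, the companion of this list with the highest mean CPM, did not pass (0.015, adjusted p = 0.958).

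Of 35 macrophage companions, 22 were tested, with a median log2 fold change of 0.45. Of these, 5 rose and 1 fell, beside 6.97% and 6.44% of all genes tested. *Cybb*, the NADPH oxidase subunit of phagocytes, had 253, 220 and 223 counts in control and 1072, 1332 and 1235 after IL-1β (log2 fold change 2.44 ± 0.10 SE, adjusted p = 1.5e-15). *Cd14*, the endotoxin co-receptor, which hepatocytes also make, had 1901, 2644 and 2728 counts against 6550, 7467 and 7954 (1.64 ± 0.10, adjusted p = 1.6e-12), and *Mpeg1*, a pore-forming protein of phagosomes, 843, 927 and 864 against 1401, 1535 and 1342 (0.76 ± 0.08, adjusted p = 1.7e-07). *Fcgr3* and *Ccl3* rose too. *Slc40a1*, the iron exporter ferroportin, fell, with 1003, 996 and 1039 counts against 507, 599 and 553 (-0.82 ± 0.09, adjusted p = 1.5e-07). None of these 4 genes with values overlapped between the groups, and they too were named for the smallest adjusted p. *Cd163*, a further marker of resident macrophages, was at 0 in all 6 libraries. The other 16 tested did not pass, among them *Ptprc*, the pan-leukocyte antigen CD45, at -0.11 (adjusted p = 0.918) and *Spi1*, which encodes PU.1, at -0.38 (adjusted p = 0.628).

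Of 35 stellate companions, 12 were tested, with a median log2 fold change of -0.05. Of these, 3 rose and 3 fell, beside 6.97% and 6.44% of all genes tested. The basement membrane collagens *Col4a1* and *Col4a2* and the protease inhibitor *Timp1* rose. *Col4a1* had 259, 244 and 270 counts in control and 427, 469 and 482 after IL-1β (0.89 ± 0.11 SE, adjusted p = 1.9e-06). The filament protein *Vim* had 2174, 1900 and 1939 counts against 763, 963 and 861 (-1.16 ± 0.08, adjusted p = 7.2e-11). *Fn1*, fibronectin, which hepatocytes secrete into plasma, had 1226, 1306 and 1055 against 609, 603 and 719 (-0.83 ± 0.08, adjusted p = 4.5e-08), and *Tpm2*, a tropomyosin, 125, 108 and 163 against 46, 47 and 52 (-1.40 ± 0.23, adjusted p = 7.2e-05). These 4, named by the same rule, did not overlap between groups, and both directions occurred among matrix and cytoskeletal genes.

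**Figure D4:**
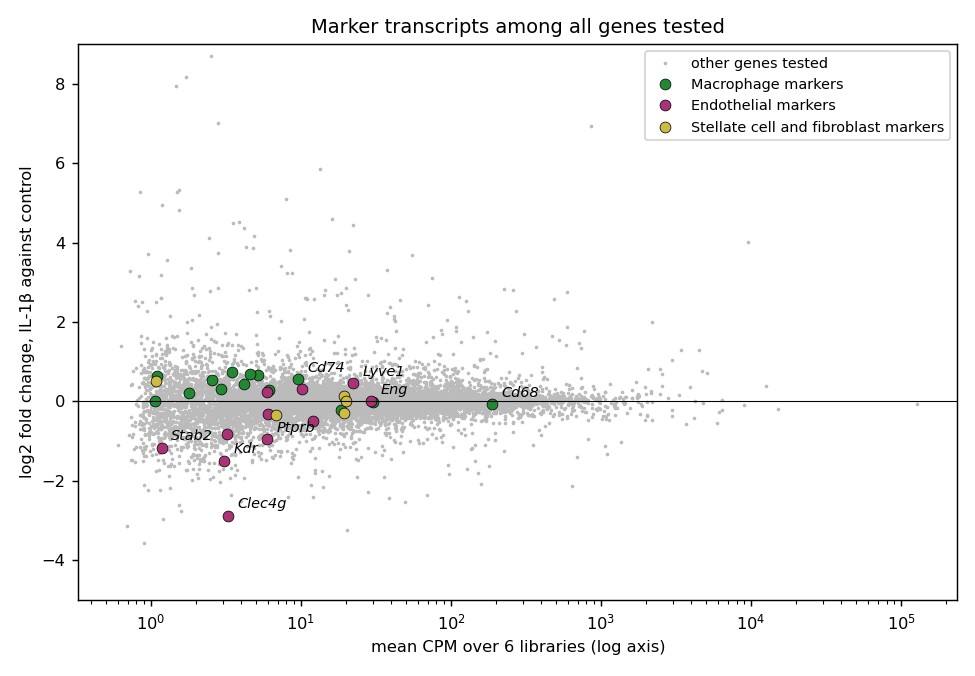
Log2 fold change of IL-1β against control plotted over mean CPM (log axis) for all 11657 genes tested in grey, with the 30 tested markers in color by list. *Clec4g* lies near the lower edge of the cloud at its level, *Kdr* and *Ptprb* also lie below 0, and *Cd68*, the marker with the highest CPM, lies at -0.06.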

How the data were processed

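RNA of 3 control and 3 IL-1β-treated hepatocyte cultures was sequenced with the QuantSeq 3′ mRNA-Seq kit. Per the labels, the authors aligned reads with Bowtie2 and normalized with edgeR; the submitters' processing notes name mm10 and GRCm38, and the counting tool and strand setting are not given in the sources used here. The raw counts per gene that the authors deposited were analysed; their log2 normalized values, fold changes and p-values in the same table were not used. Counts were tested in R 4.3.3 with edgeR 4.0.16 (filterByExpr with a minimum count of 10, TMM, quasi-likelihood test, Benjamini-Hochberg adjustment over the 11657 genes kept), after a check of the script on simulated data. The SE is the log2 fold change divided by the square root of F. Figures and sequences used Python 3.11.15.

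Groups came from sample titles. Replicate libraries differed beyond counting noise (chi-square per degree of freedom 4.05 to 9.52), so no library was a repeat of the counts of another. *Rn45s*, a ribosomal RNA locus, took 11.7% to 14.2% of counts. Markers and lists were chosen with earlier results of these data known. All markers are named; values are given in full for those with an adjusted p below 0.05, the 4 highest mean CPM of each list, and those with at most 3 counts in every library. The library counts of some other markers are also given, chosen after their values were seen. Companion genes named are up to 4 of each list with the smallest adjusted p among those called, or the 2 with the highest mean CPM if none was called, and other companion genes were named after their values were seen. Gene positions are those of the deposited table, promoters those of RefSeq on GRCm38.p6. Alternatives were DESeq2 1.42.0 or its size factors in edgeR, total counts only, other count filters, the replicate number as a block, and leaving out each library.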

Additional observations from a re-analysis of the deposited data

How the results depend on the processing

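The calls of *Clec4g*, *Kdr* and *Ptprb* held under every alternative with all 6 libraries that tested them (*Clec4g* could not be tested with at least 10 counts in every library). Endothelial markers called higher numbered 0 with total counts only and 0 in DESeq2, where *Lyve1* lost its call. The endothelial median log2 fold change was -0.82 in DESeq2, -0.82 without a filter and -0.31 with at least 10 counts in every library, and the stellate median was -0.29 without a filter and -0.13 with at least 10 counts; these lists then held more or fewer genes. Values near 0 changed sign with total counts only (*Lyz2* and *Eng* both -0.039, *Sparc* -0.036), which shifted the median of all genes to -0.055, and *Lyz2* changed with the replicate block (-0.0081). Same-numbered libraries did not deviate together (r 0.075, 0.027 and -0.0050), so no pairing by number was made. The replicate block called 1671 genes in all and changed no call among the markers. Leaving out each library gave 0 to 2 macrophage markers called higher (the 2 being *C1qa* and *Cd74*, without control library 1), 0 to 1 endothelial called higher and 2 to 4 called lower. Medians then ranged from 0.18 to 0.49 (macrophage), -0.87 to -0.43 (endothelial) and -0.21 to 0.11 (stellate). Log2 fold changes ranged across 0 for *C1qb* (-0.21 to 0.63), *C1qc* (-0.052 to 0.74), *Lyz2* (-0.46 to 0.35), *Ctss* (-0.077 to 0.022), *Eng* (-0.048 to 0.12) and *Sparc* (-0.016 to 0.045). *Adgre1* (0.026 to 1.09), *Stab2* (-1.39 to -0.58), *Egfl7* (-0.63 to -0.24) and *Pecam1* (-0.58 to -0.030) kept their sign but varied widely. On the gene's own strand only, the share of macrophage promoters with the PU.1 motif was 0% and with the ETS motif 41.7%. With the ETS motif in place of the longer PU.1 motif it was 75%, and the short ETS core was in 100% of macrophage, 100% of endothelial and 100% of stellate promoters, beside 96.0% of all promoters. The cause of these changes was not tested where none is named. The 13 untested markers had at most 36 counts in any library, and why they were low was not tested. Of the 18 hepatocyte genes, *Ass1* and *Pck1* also had too few counts for the test, at most 13 in any library.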

Other observations

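Markers of other cells that a liver preparation could hold gave a mixed picture. Of 11 lymphocyte genes, 7 were at 0 in all 6 libraries and only *Ccl5*, a chemokine that many cell types make, could be tested. It had 518, 613 and 626 counts in control and 3482, 4143 and 4546 after IL-1β (log2 fold change 2.84 ± 0.09 SE, edgeR adjusted p = 5.0e-18). Of 8 neutrophil genes, 5 were at 0 throughout. *S100a8*, a calcium-binding protein of neutrophils and monocytes, had 0 counts in each control library and 19, 36 and 51 counts after IL-1β, which is at least 12.0-fold higher against 3 counts per library. *S100a9*, which encodes its usual binding partner, was at 0 in all 6 libraries. Of 6 mesothelial genes none could be tested and 4 were at 0, with *Gpm6a* and *Lrrn4* at 2 counts or fewer in every library.

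Of 10 cholangiocyte genes, 4 were tested. The other 6, *Krt19*, *Krt7*, *Epcam*, *Cftr*, *Tspan8* and *Muc1*, had at most 6 counts in any library. Which cells the reads of the 4 came from was not tested. *Cldn4*, a tight junction protein, fell from 46.8 ± 5.23 to 9.57 ± 0.463 CPM (log2 fold change -2.29, adjusted p = 1.1e-12), *Spp1*, osteopontin, fell from 189.8 ± 1.95 to 82.7 ± 5.17 CPM (-1.20, adjusted p = 4.4e-12), and *Ehf*, an epithelial ETS factor, rose from 1.11 ± 0.584 to 15.7 ± 3.59 CPM (3.82, adjusted p = 6.4e-10). The fourth, *Sox9*, a transcription factor of biliary cells, had 133.7 ± 5.31 CPM in control and 154.6 ± 5.86 CPM after IL-1β (0.21, adjusted p = 0.0519), with no overlap. Of 18 hepatocyte genes, 16 were tested, with a median log2 fold change of -0.32. Of these, 2 rose and 11 fell, beside 6.97% and 6.44% of all genes tested. The smallest adjusted p values among those that fell were those of *Ahsg*, fetuin-A (-1.39, adjusted p = 1.6e-14), *Gc*, the vitamin D-binding protein (-0.58), *Asgr1*, the asialoglycoprotein receptor (-0.55) and *Apob*, apolipoprotein B (-0.53), while *Tat*, tyrosine aminotransferase, fell by more at a much lower level (-1.71, adjusted p = 0.00876). The summed level of the 18 genes was 39303 ± 311 CPM in control and 34221 ± 576 CPM after IL-1β, a ratio of 0.87. The part of this in the marker levels, which are relative to the whole library, was not tested.

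Below the count needed for a test, *Itgam*, an integrin of monocytes and neutrophils, had 0, 1 and 0 counts in control and 6, 9 and 15 after IL-1β. *Cd34*, an antigen of vascular endothelium and stromal progenitors, had 0 counts in each control library and 3, 8 and 30 counts after IL-1β. Most of the *Cd34* reads thus came from IL-1β library 3. Both genes were picked out after their values were seen.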
